A study of Mus musculus with 6 samples.

Results

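The aryl hydrocarbon receptor gene Ahr was examined together with the 9 genes that encode its repressor, its partners and the related factors of the circadian clock and the hypoxia response. The 10 genes were Ahr, Ahrr, Arnt, Arnt2, Arntl, Clock, Npas2, Hif1a, Epas1 and Hif3a. They were chosen by name from a table of 49315 genes, and all 10 were among the 15847 genes with enough counts to be tested. RNA had been sequenced from gastrocnemius, a calf muscle, of male C57BL6J mice. The mice received adeno-associated virus in the muscle at 5 months of age, and the muscle was taken 5 months after that. In 3 libraries (replicates 31, 34 and 36) the virus was AAV9-HSA-CAAHR, which carries a constitutively active AHR, a mutated receptor that works without ligand. In the other 3 libraries (replicates 42, 43 and 46) it was AAV9-HSA-GFP, which carries green fluorescent protein. The groups are called CAAHR and GFP muscles below.

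All libraries thus came from injected muscle, and uninjected muscle was not analysed here. The human skeletal actin (HSA) promoter restricts both constructs to muscle fibres, whereas whole-muscle RNA also holds transcripts of vessels, nerves and immune cells. In such bulk RNA, fewer cells of a type and less RNA per cell cannot be told apart. The labels number the libraries but do not say that each is a separate mouse, so that P values measure the spread between these libraries. Library totals were between 43432994 and 58825752 counts. Levels are given as CPM, counts relative to the library total after TMM scaling (trimmed mean of M values), with the mean ± SD of n = 3 libraries where a group is summarised. Transcripts of skeletal muscle were abundant, and Myh4, a fast myosin gene, was at 57095 to 86292 CPM in CAAHR and 82745 to 92787 CPM in GFP muscles.

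Basic helix-loop-helix PAS (bHLH-PAS) factors bind DNA as pairs. One partner carries the signal, such as AHR for ligands, HIF1A and EPAS1 for low oxygen, or CLOCK and NPAS2 for time of day, and the other is a shared partner, ARNT or ARNT2 for the first groups and ARNTL (BMAL1) for the clock. AHRR resembles AHR, competes with it for ARNT and represses its target genes, and AHR switches on its gene, which closes a negative feedback loop.

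The AHR and ARNT pair recognises the core letters GCGTG, and the stretches upstream of 3 genes are shown because Ahrr rose in CAAHR muscles while Arnt and Hif3a, whose stretches also hold this core, did not pass the test. Each line gives the 250 bases before the RefSeq start site on the gene's own strand, from the GRCm38.p6 assembly, with GCGTG or its reverse complement CACGC in capitals. The intervals are chr13:74292332-74292581 (minus strand) for Ahrr, chr3:95434140-95434389 (plus strand) for Arnt and chr7:17062428-17062677 (minus strand) for Hif3a.
Ahrr: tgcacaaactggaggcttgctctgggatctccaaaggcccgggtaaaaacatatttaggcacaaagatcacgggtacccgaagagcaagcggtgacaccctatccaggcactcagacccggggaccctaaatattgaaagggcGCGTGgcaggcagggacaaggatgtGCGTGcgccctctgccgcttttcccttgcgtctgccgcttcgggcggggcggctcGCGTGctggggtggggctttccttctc
Arnt: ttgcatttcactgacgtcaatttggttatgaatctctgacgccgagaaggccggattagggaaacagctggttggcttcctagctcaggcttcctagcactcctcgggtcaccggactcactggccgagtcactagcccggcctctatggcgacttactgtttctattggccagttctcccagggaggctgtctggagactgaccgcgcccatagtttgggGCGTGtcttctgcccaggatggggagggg
Hif3a: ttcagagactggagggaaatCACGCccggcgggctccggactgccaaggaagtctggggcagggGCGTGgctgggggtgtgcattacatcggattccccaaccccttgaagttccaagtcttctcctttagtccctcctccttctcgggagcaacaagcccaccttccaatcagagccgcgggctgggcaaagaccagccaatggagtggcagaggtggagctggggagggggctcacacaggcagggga

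Ahrr held 3 cores, which began 107, 82 and 27 bases before the start. The last of them lay within the longer AHR element TNGCGTG. Arnt held 1 core, 29 bases before its start, and Hif3a held 2, at 230 and 186 bases. Over windows of 300 bases (250 before and 50 after a start, both strands), 32.4% of 32851 RefSeq promoter windows held GCGTG and 5.07% held TNGCGTG. Windows of 8 of the 10 genes were in the RefSeq table, with Ahr and Epas1 named only. Of the others, Npas2 held 1 GCGTG and Clock held 1 in the first of its 3 windows and 2 in the second. Arnt2, Arntl and Hif1a held none. The window of Hif1a belongs to a start site 6492 bases downstream of the gene start given below. The hypoxia core ACGTG was in 19.6% of windows. It began 217 bases before the start of Npas2 and at 3 positions in the window of Hif1a. A pair of these is the same site read on both strands, since the E-box CACGTG, found in 7.15% of windows, contains ACGTG in each direction. These matches are letters in the reference sequence, and binding was not measured.

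The comparison asked which of these transcripts differ in muscle whose fibres make active AHR. Ahr and its repressor Ahrr rose in CAAHR muscles, by 7.30-fold and 206-fold. The other 8 genes did not pass an adjusted P of 0.05 (edgeR quasi-likelihood F test, Benjamini-Hochberg adjusted over all tested genes, as for every adjusted P below). Thus 2 of 10 passed, both higher, where 7.6% of all tested genes passed in either direction, 3.04% as higher and 4.57% as lower. Ahr is the gene that the CAAHR virus delivers, so its call was given by the design. Ahrr was the only member called that was not delivered. The CAAHR and GFP libraries did not overlap for Ahr and Ahrr, with CAAHR higher, and for Hif3a, with CAAHR lower. Among all tested genes, 15% did not overlap with CAAHR higher and 14.9% with CAAHR lower.

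**Figure D1:**
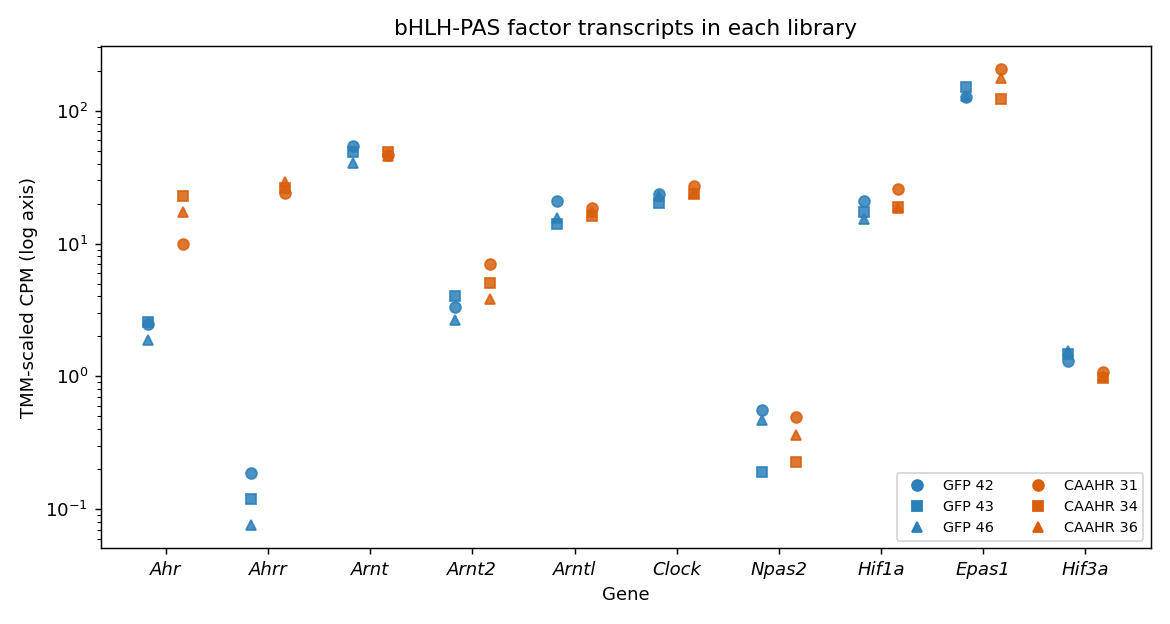
TMM-scaled CPM (log axis) of the 10 bHLH-PAS genes, with 1 point for each of the 3 GFP libraries (blue) and 3 CAAHR libraries (orange). The CAAHR points of Ahr (9.97 to 22.8) and Ahrr (24.0 to 29.2) lie above every GFP point, those of Hif3a (0.98 to 1.07) lie below, and the groups overlap in the other 7 genes.

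Ahr encodes the ligand-sensing receptor and is also the gene that the CAAHR virus delivers. It lies on chromosome 12 from 35497974 to 35535038 (GRCm38, as are all positions below). Its levels were 9.97, 22.8 and 17.3 CPM in CAAHR replicates 31, 34 and 36, and 2.47, 2.55 and 1.87 CPM in GFP replicates 42, 43 and 46. Each CAAHR muscle was above each GFP muscle, and the CAAHR muscles also differed among themselves, with the highest at 2.29 times the lowest. The means were 16.7 ± 6.44 CPM and 2.29 ± 0.370 CPM. The log2 fold change was 2.87 ± 0.31 (SE), with a 95% interval from 2.15 to 3.59 and an adjusted P of 0.00229. Reads of the delivered coding sequence and of the mouse's own Ahr fall in the same exons and were counted together, so this value checks delivery and does not show how the endogenous gene behaved. The antisense gene Gm48236 overlaps 127 bases (2.06%) of Ahr exons.

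Ahrr, which encodes the AHR repressor, lies on chromosome 13 from 74211118 to 74292331 and was not delivered. GFP muscles held only 9, 5 and 4 counts of it (0.187, 0.12 and 0.0755 CPM). CAAHR muscles held 1214, 1504 and 1783 counts, or 24.0, 26.3 and 29.2 CPM. The groups were far apart, and the CAAHR muscles lay close together, at 26.5 ± 2.63 CPM against 0.127 ± 0.0558 CPM. The log2 fold change was 7.69 ± 0.22, with a 95% interval from 7.20 to 8.18 and an adjusted P of 1.36e-07, and only 1 of the 15847 genes had a smaller P. With so few counts in GFP muscles, the size of the fold rests on 4 to 9 reads a library.

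The other AHR response genes placed the 3 CAAHR muscles in nearly the same order as Ahr. Tiparp encodes an ADP-ribosyltransferase that is induced by AHR and restrains it, and its levels were 97.1, 127 and 119 CPM against 31.4, 22.4 and 24.9 CPM. The monooxygenase genes Cyp1a1 and Cyp1b1 stood at 1230, 1680 and 1520 CPM and at 123, 203 and 181 CPM in CAAHR muscles. Nqo1, a quinone reductase gene, stood at 194, 255 and 212 CPM. Replicate 31 was the lowest CAAHR muscle for all 6 of these genes with Ahr and Ahrr included, and replicate 34 the highest for 5 of them. Ahrr was the exception, being highest in replicate 36. Over the GFP mean, the folds of replicates 31, 34 and 36 were 4.34, 9.94 and 7.56 for Ahr and 188, 207 and 230 for Ahrr. Across the CAAHR muscles, the highest fold was 2.29 times the lowest for Ahr, 1.65 times for Cyp1b1 and 1.22 times for Ahrr. These orders describe 3 libraries and were not tested.

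**Figure D2:**
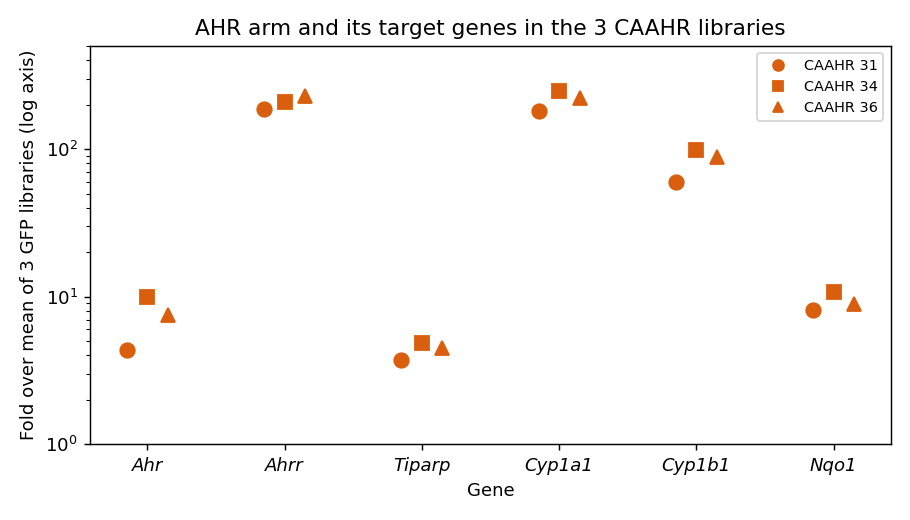
Level of 6 AHR-arm genes in each CAAHR library as a fold over the mean of the 3 GFP libraries (log axis). Replicate 31 (circle) is lowest for every gene shown, from 3.7-fold for Tiparp to 188-fold for Ahrr, and replicate 34 (square) is highest for all but Ahrr.

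The fibre-type markers also differed among the CAAHR muscles. The summed level of 9 fast-fibre markers was 139000, 197000 and 162000 CPM in replicates 31, 34 and 36, against 198000 to 207000 CPM in GFP muscles. That of 9 slow-fibre markers was 2910, 683 and 2660 CPM, against 239 to 520 CPM. Replicate 34, which had the most Ahr, was thus closest to the GFP muscles in both sums. Of the 9 fast-fibre markers 2 fell, where 4.57% of all tested genes passed as lower. None of these markers passed without any one library other than CAAHR replicate 34. Without that one 6 passed, where 1727 of 16180 genes passed in either direction. The 9 slow-fibre markers were all above 0 in log2 fold change (median 2.36), and 7 had an unadjusted edgeR P under 0.05, as did 3781 of all 15847 genes. Where 3.04% of all tested genes passed as higher, 0 of these markers passed. Under alternatives, 7 of them passed with DESeq2, 8 with limma-voom and 6 with edgeR without robust estimation. Over all 15847 genes, 803, 673 and 522 passed as higher in these fits. With library size as the only scaling 1 marker passed, where 876 of 15847 genes passed as higher. Without CAAHR replicate 34 it was 6 markers, where 835 of 16180 genes passed as higher. The mouse's own Acta1, whose human counterpart supplies the HSA promoter, was at 21733, 22004 and 21660 CPM in CAAHR muscles against 35143, 36567 and 37674 CPM. Ckm, the muscle creatine kinase gene, was at 14426, 20556 and 16993 CPM against 27438, 28981 and 29593 CPM. The part of fibre type in the levels of Ahr and its targets was not tested.

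The wider AHR list held 15 genes for chaperones, co-regulators and feedback. All 15 were tested, 1 rose and 2 fell, and 12 did not pass, where 7.6% of all tested genes passed. The list had a median log2 fold change of 0.08 against 0.01 for all tested genes. Tiparp rose by 2.12 ± 0.15 on the log2 scale (adjusted P = 0.000157). Relb, a subunit of NF-kB that can pair with AHR, changed by -0.66 ± 0.12 (adjusted P = 0.0130), at 8.92, 11.7 and 10 CPM against 15.5, 15.6 and 17.2 CPM. Klf6, a zinc-finger factor known as a partner of AHR, changed by -0.54 ± 0.14 (adjusted P = 0.0419). The groups did not overlap for either gene, but both calls were lost under some alternatives. That of Relb was lost without CAAHR replicate 36 (adjusted P = 0.0575) or GFP replicate 46 (0.0567). That of Klf6 was lost without any one library other than CAAHR replicate 34 (0.0935 to 0.126), or with library size as the only scaling (0.0514). The cytosolic chaperone genes Hsp90aa1, Hsp90ab1 and Ptges3, whose products hold unliganded AHR and which were named outside the rule, had log2 fold changes of 0.33, 0.15 and 0.15 and did not pass.

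Of 10 genes for AHR target enzymes, 5 had enough counts to be tested, so that the counts do not describe the whole list. The named Cyp1a1, Cyp1b1 and Nqo1 rose, by 7.77 ± 0.20, 6.36 ± 0.24 and 3.21 ± 0.13 on the log2 scale (adjusted P of 1.11e-07, 4.22e-06 and 1.86e-06). Gsta3, which encodes a glutathione transferase, fell by 1.79 ± 0.43 (adjusted P = 0.0359), from 0.54 ± 0.188 to 0.157 ± 0.0535 CPM. That last call rested on at most 40 counts in a library and was lost when any one library was left out (adjusted P between 0.0539 and 0.14). The glutathione transferase genes are a family of close copies, and Gsta3 counts are uncertain for that reason too.

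Arnt, the partner that AHR and the HIF factors share, lies on chromosome 3 from 95434388 to 95497240. It stood at 46.6, 48.6 and 45.9 CPM in CAAHR muscles and 54.6, 48.9 and 40.7 CPM in GFP muscles. The CAAHR values lay inside the range of the GFP values. The log2 fold change was -0.03 ± 0.11 with a 95% interval from -0.28 to 0.22 (adjusted P = 0.908), which lies wholly below the interval of Ahr. Its sign turned under 2 alternatives.

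Arnt2, a partner best known from neurons, lies on chromosome 7 from 84246278 to 84410176. Its levels were 7.06, 5.09 and 3.81 CPM against 3.34, 4.01 and 2.66 CPM. The groups overlapped, with CAAHR replicate 36 below GFP replicate 43. The log2 fold change was 0.67 ± 0.24 with a 95% interval from 0.13 to 1.22, an unadjusted P of 0.0213 and an adjusted P of 0.129. It passed under 1 of 14 alternatives, without a filter on low counts (adjusted P = 0.00422). The antisense gene Gm30873 shares 214 exon bases with Arnt2 (2.78%) and held 9 counts over the 6 libraries.

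The clock factors were close in both groups. Arntl, on chromosome 7 from 113207465 to 113314126, encodes the shared clock partner and stood at 18.5, 16.1 and 17.4 CPM against 20.8, 14.1 and 15.7 CPM. The CAAHR values fell within the GFP range, and the log2 fold change was 0.04 ± 0.14 (95% interval -0.28 to 0.36, adjusted P = 0.906). Its sign turned under 4 of 14 alternatives. Clock, on chromosome 5 from 76209868 to 76304792, encodes the partner of ARNTL, and its levels were 27.1, 23.7 and 23.9 CPM against 23.8, 20.2 and 22.7 CPM. The groups overlapped, with a log2 fold change of 0.16 ± 0.10 (95% interval -0.07 to 0.39, adjusted P = 0.383).

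Npas2, a relative of Clock on chromosome 1 from 39193731 to 39363236, was scarce. It had 25, 13 and 22 counts in CAAHR and 27, 8 and 25 counts in GFP muscles, or 0.494, 0.228 and 0.361 CPM against 0.56, 0.192 and 0.472 CPM. At this depth its 95% interval ran from -1.24 to 0.84 on the log2 scale around -0.20 ± 0.46 (adjusted P = 0.847), so that changes of either sign within that interval are not excluded. The hour at which the muscles were taken was not given in the sources used here, and clock transcripts vary over the day.

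Of 21 genes listed for the repressor and output arm of the clock, 20 were tested, 2 fell and 18 did not pass, where 7.6% of all tested genes passed and 4.57% passed as lower. The median log2 fold change was -0.27, and 9 of the 20 had an unadjusted P under 0.05, as did 3781 of all 15847 genes. Bhlhe40, a helix-loop-helix repressor of CLOCK and ARNTL, was at 128, 114 and 101 CPM against 178, 187 and 186 CPM. The groups were well apart, with a log2 fold change of -0.68 ± 0.11 (adjusted P = 0.00648), which passed under all 14 alternatives. Hlf, an output factor, fell by 0.52 ± 0.10 (adjusted P = 0.0151), from 24.6 ± 0.972 to 17.1 ± 1.68 CPM. The call of Hlf was lost without CAAHR replicate 31 (adjusted P = 0.0521), CAAHR replicate 36 (0.067) or GFP replicate 43 (0.062). The list held 6 calls without CAAHR replicate 34, 4 without GFP replicate 43, and 1 without CAAHR replicate 31 or 36.

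**Figure D3:**
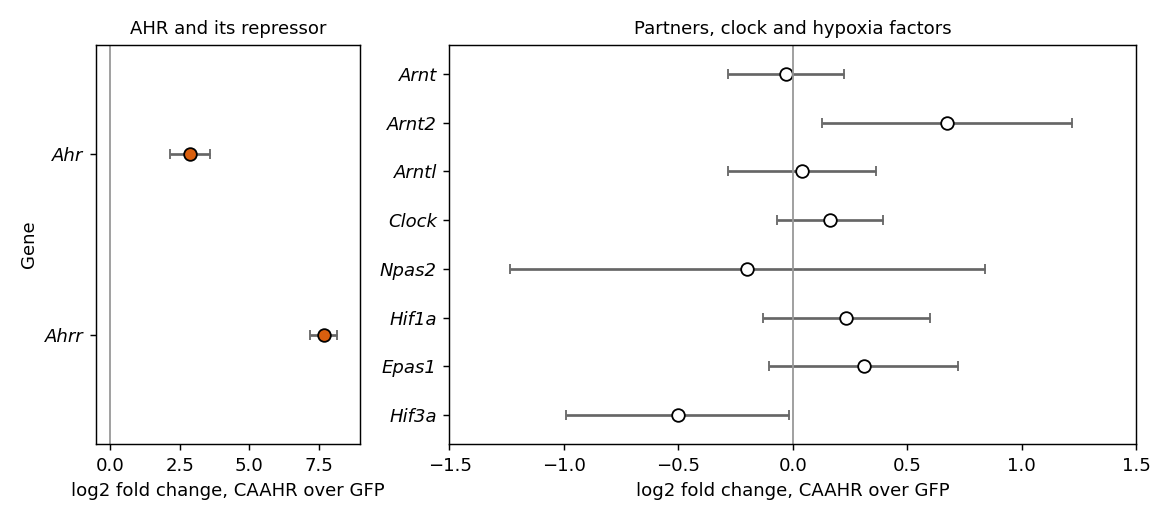
Log2 fold change of each bHLH-PAS gene, CAAHR over GFP, with its 95% interval (n = 3 libraries a group). Filled points passed an adjusted P of 0.05. Ahr (2.87) and Ahrr (7.69) are on an axis of their own, and the 8 genes at the right lie between -0.50 and 0.67.

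The hypoxia factors did not pass the test. Hif1a, on chromosome 12 from 73901375 to 73947530, encodes the broadly expressed oxygen-regulated subunit and stood at 25.9, 18.7 and 18.4 CPM against 20.8, 17.4 and 15.3 CPM. The groups overlapped, and the log2 fold change was 0.23 ± 0.16 (95% interval -0.13 to 0.60, adjusted P = 0.423). It was 0.05 without CAAHR replicate 31, the highest library. The antisense gene Gm15283 shares 330 bases (5.60%) of Hif1a exons and held 48 counts in all, and Gm49321 on the same strand shares 148 bases (2.51%).

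Epas1, on chromosome 17 from 86753700 to 86833410, encodes the subunit that is abundant in vessel walls. Its levels were 207, 122 and 176 CPM in CAAHR and 127, 151 and 130 CPM in GFP muscles. CAAHR replicate 34 was the lowest of all 6 and replicate 31 the highest, so that the groups overlapped, with a log2 fold change of 0.31 ± 0.18 (95% interval -0.10 to 0.72, adjusted P = 0.346). Without CAAHR replicate 34 the log2 fold change was 0.49 and passed (adjusted P = 0.0298), and without CAAHR replicate 31 it was 0.13 (adjusted P = 0.715). The summed level of 10 endothelial markers ran in the same order within the CAAHR muscles, at 383, 262 and 374 CPM. In GFP muscles it was 323, 286 and 336 CPM, so that replicate 43 was lowest in this sum but highest for Epas1. The slow-fibre sum also ran in the order of Epas1 within the CAAHR muscles, at 2910, 683 and 2660 CPM. In GFP muscles it was 239, 372 and 520 CPM, highest in replicate 46 and not in replicate 43. The order was not particular to these lists, since the sum of 8 fibroblast markers shared it within the CAAHR muscles, at 741, 375 and 665 CPM. In GFP muscles that sum was 609, 556 and 703 CPM, lowest in replicate 43. By edgeR 0 of the endothelial markers passed, where 7.6% of all tested genes passed. An unadjusted P under 0.05 was found for 0 of them and for 3781 of all 15847 genes. Without CAAHR replicate 34, 1 of them passed, where 1727 of 16180 genes passed. The part of vessel content, fibre type or other cells in the Epas1 values was not tested.

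Hif3a, on chromosome 7 from 17031507 to 17062427, encodes a HIF relative with forms that restrain the other HIF factors. It was low, at 54, 56 and 61 counts (1.07, 0.98 and 1 CPM) in CAAHR and 63, 61 and 82 counts (1.31, 1.47 and 1.55 CPM) in GFP muscles. All 3 CAAHR values lay below all 3 GFP values, yet the log2 fold change of -0.50 ± 0.22 (95% interval -0.99 to -0.02) had an unadjusted P of 0.0444 and an adjusted P of 0.196. It did not pass under any of 14 alternatives, with adjusted P values between 0.143 and 0.417.

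Genes that control or answer to the HIF factors were read against the 7.6% of all tested genes that passed. Of 9 oxygen-sensing genes, all tested, 1 fell and 8 did not pass, with a median log2 fold change of -0.08. Elob, a part of the ubiquitin ligase that marks HIF subunits for destruction, fell by 0.45 ± 0.11 (adjusted P = 0.0438), from 104 ± 6.47 to 76.1 ± 9.57 CPM. Of 24 HIF target genes 23 were tested, 2 rose and 21 did not pass, with a median log2 fold change of -0.02. Kdm3a, a histone demethylase gene, stood at 21.2, 21.3 and 21.1 CPM against 13.4, 12.5 and 11.0 CPM. The groups were apart in each library, with a log2 fold change of 0.78 ± 0.10 (adjusted P = 0.00253), which passed under all 14 alternatives. Pdk1, a kinase that restrains pyruvate dehydrogenase, rose by 0.45 ± 0.11 (adjusted P = 0.0359), from 51.6 ± 1.66 to 70.6 ± 9.20 CPM. The study named Pdk1 from these libraries, so that its call is not independent evidence. The same holds for Ahr, Ahrr, Cyp1a1, Cyp1b1 and Nqo1, which the study named as higher, and for Ckm, which it named as lower. The calls of Elob and Pdk1 were lost without any one library other than CAAHR replicate 34 (adjusted P of 0.0799 to 0.132 and of 0.0898 to 0.129), that of Elob also with library size as the only scaling (0.0628) and that of Pdk1 with upper quartile scaling (0.0622).

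**Figure D4:**
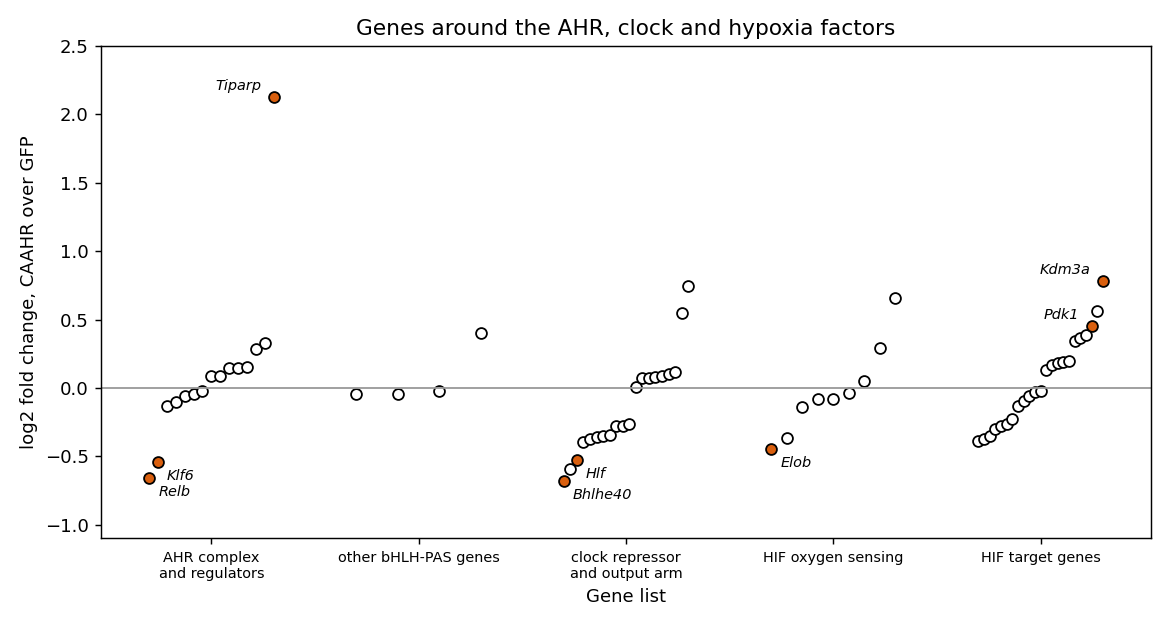
Log2 fold change, CAAHR over GFP, of every tested gene in 5 lists around the AHR, clock and hypoxia factors, with genes ordered by value within a list. Filled points passed an adjusted P of 0.05 and are named; they range from Relb and Bhlhe40 below -0.6 to Tiparp at 2.12.

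The list of other bHLH-PAS genes held 6 members, of which 4 were tested and none passed (edgeR), with 1 at an unadjusted P under 0.05. Of all 15847 tested genes, 7.6% passed and 3781 had an unadjusted P under 0.05. Sim2, a single-minded factor that also pairs with ARNT, was at 30.7, 39.0 and 37.8 CPM against 29.2, 26.3 and 25.8 CPM. All CAAHR values were above all GFP values, as for 15% of all tested genes. The log2 fold change was 0.40 ± 0.11 and the adjusted P was 0.0590. It passed under 4 of 14 alternatives, with DESeq2 (0.0346), library size as the only scaling (0.0283), no filter (0.00578) and without CAAHR replicate 31 (0.0333). Arntl2, the paralogue of Arntl, had a log2 fold change of -0.04 ± 0.28. Sim1 was too low to be tested, at 0.534, 0.0875 and 0.312 CPM against 0.0622, 0.024 and 0 CPM, and it was chosen for mention after its values were seen.

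To compare levels between genes, CPM were divided by the length of all annotated exons of a gene in kilobases. In GFP muscles Epas1 was highest, at 24.3 ± 2.34 CPM per kilobase, followed by Arnt at 6 ± 0.874, Hif1a at 3.03 ± 0.472, Arntl at 2.24 ± 0.465 and Clock at 1.62 ± 0.137. Arnt2 (0.434), Ahr (0.372), Hif3a (0.215), Npas2 (0.0851) and Ahrr (0.0135) came after. The ranges of Hif1a and Arntl overlapped, as did those of Arnt2 and Ahr. In CAAHR muscles Ahrr, the lowest of the 10 in GFP muscles, took the fourth place at 2.81 ± 0.278, after Hif1a at 3.56 ± 0.714. Ahr came next at 2.71 ± 1.04 on the annotated length. Its range (1.62 to 3.7) overlapped those of Hif1a, Ahrr, Arntl (2.30) and Clock (1.81). Lengths from the longest transcript, an alternative added after the data were seen, changed the places of 2 genes in GFP and 4 genes in CAAHR muscles, where Ahrr then exchanged places with Hif1a and Ahr with Arntl. The CAAHR virus delivers only a coding sequence without the ligand-binding domain, so the Ahr level per kilobase in CAAHR muscles is divided by a length that the delivered transcript does not have.

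Ratios of partner transcripts within a library need no scaling between libraries, and 8 were compared on the same per-kilobase scale with an exact two-sided permutation test, for which the smallest possible P with 3 libraries against 3 was 0.1. The ratio of Ahr to Arnt was 0.278, 0.609 and 0.491 in CAAHR and 0.0587, 0.0677 and 0.0597 in GFP muscles. The CAAHR values were all above the GFP values. They divide Ahr by the annotated exon length, which the delivered transcript does not have, so they do not order Ahr and Arnt in CAAHR muscles. The ratio of Ahrr to Ahr was 1.57, 0.753 and 1.10 against 0.0494, 0.0308 and 0.0264. In GFP muscles the repressor transcript was thus far under the receptor transcript, and in CAAHR muscles the order of the pair depends on the length given to Ahr. The differences were 2.82 and 5.00 on the log2 scale, each with exact P = 0.1.

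Among the other partners, the ratio of Arnt2 to Arnt was 0.158, 0.109 and 0.0864 against 0.0637, 0.0855 and 0.0682, and that of Hif3a to Hif1a was 0.0363, 0.046 and 0.0477 against 0.0551, 0.074 and 0.0888. Neither pair of groups overlapped, with log2 differences of 0.67 and -0.73 (exact P = 0.1 for both). The ratios of Arntl to Clock, Npas2 to Clock, Arntl to Npas2 and Epas1 to Hif1a overlapped between groups, with log2 differences between -0.27 and 0.17 and exact permutation P values between 0.5 and 0.8. Adjusted over the 8 ratios, P was 0.2 for the first 4 and 0.8 for the rest, and with this test no single difference could have passed.

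**Figure D5:**
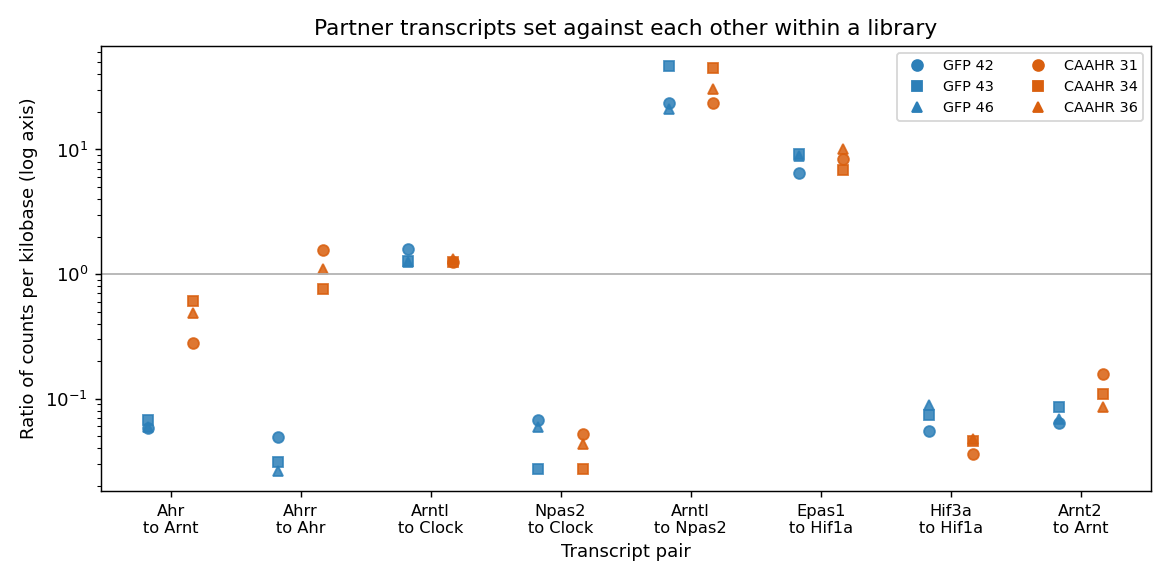
Ratio of counts per kilobase between 2 bHLH-PAS transcripts (log axis) in each GFP (blue) and CAAHR (orange) library, with a line at 1. Ahr to Arnt, Ahrr to Ahr and Arnt2 to Arnt are higher and Hif3a to Hif1a is lower in all 3 CAAHR libraries, and the other 4 ratios overlap.

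The genes whose profile over the 6 libraries was closest to that of a member were found by the root mean square difference of log2 CPM, each centred on its own mean, among all tested genes. For Ahr these were Lingo1 (0.149), 4931440P22Rik (0.166) and Slc15a4 (0.245), where Ahr itself deviated from its mean by 1.44. Lingo1, known from neurons, was at 9.33, 20.3 and 14.6 CPM against 1.87, 1.73 and 1.49 CPM. It followed Ahr in having replicate 34 highest and replicate 31 lowest among CAAHR muscles. For Ahrr the closest were Cyp1a1 (0.327), Gm33045 (0.547) and Ccno (0.578), where Ahrr deviated by 3.70. For Arntl they were Bcl9 (0.044), Tmtc2 (0.0513) and 4732471J01Rik (0.0517), where Arntl deviated by 0.178. Since these genes were picked for likeness, the values are a description and were not tested.

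Markers of other cells differed between the groups, and each fall below is relative to GFP muscles. By quantitative PCR of selected immune genes, the paper found no decrease in CAAHR muscle against muscle without virus. It attributes the difference between the groups to a local immune response to AAV-GFP. Muscle without virus was not analysed here. Of all tested genes, 4.57% passed as lower. Among immune lists, 5 of 9 tested B and plasma cell markers, 2 of 4 tested T and NK cell markers and 6 of 7 tested neutrophil markers fell. The T and NK cell list held 10 markers, so that most of it was too low to be tested. Some scarce markers were tested only because of their GFP levels. Cd8b1, for example, was at 0.0395, 0.0525 and 0.0164 CPM against 0.228, 0.409 and 0.264 CPM, and Lck and Mmp8 were alike in this. Being tested thus favoured markers lower in CAAHR, so these counts cannot be weighed against the share over all genes. All 10 macrophage markers were below 0 (median -1.15), with none past the threshold, 8 at an unadjusted edgeR P under 0.05 and 7 past it with DESeq2. Of all 15847 tested genes, 3781 had an unadjusted edgeR P under 0.05 and 1919 passed with DESeq2, 1116 of them as lower. The summed B and plasma cell level was 11.2 to 20.0 CPM in CAAHR and 145 to 580 CPM in GFP muscles, and the macrophage level 27.6 to 46.7 against 54.7 to 119 CPM. With 1 library left out, the number of B and plasma cell calls was between 0 (without CAAHR replicate 31 or 36) and 6, that of T and NK cell calls between 0 (without GFP replicate 43) and 5, and that of neutrophil calls between 3 (without CAAHR replicate 36) and 6. Adipocyte markers fell in 3 of 8, and in 0 without CAAHR replicate 31 or GFP replicate 46. None of 8 Schwann cell markers (median -0.58) or 8 fibroblast markers (median -0.09) passed, with 2 and 1 at an unadjusted P under 0.05 and 2 and 1 past the threshold with DESeq2. No listed marker was at 0 in all libraries. The part of these cells in the levels of Hif1a, Hif3a, Relb and the other genes named here was not tested.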

How the data were processed

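Per the labels, RNA came from gastrocnemius of AAV9-HSA-CAAHR and AAV9-HSA-GFP treated mice, with 3 libraries a group. The authors deposited counts, whole numbers per gene that were not normalised. According to their methods and processing notes, poly(A)-selected RNA was sequenced as paired ends, trimmed (Trimmomatic 0.36), aligned to GRCm38 (STAR 2.5.2b) and counted over exons with featureCounts from unique alignments. Strandedness was not given in the sources used here, so antisense reads may be included. Rows without a symbol (174, 0.0154% of counts) were tested as genes.

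Counts were filtered (filterByExpr), TMM-scaled and tested with edgeR 4.0.16 (robust quasi-likelihood F test) in R 4.3.3, with Benjamini-Hochberg adjustment at 0.05. Standard errors were derived from the F statistic. Alternatives changed the scaling, the filter, the test (DESeq2 1.42.0, as in the study, and limma 3.58.1 voom) and the libraries. Pairs of libraries differed by more than sampling noise. Positions and exon lengths came from GENCODE (GRCm38), which held 99.5% of the genes, and Ero1a was found under its synonym Ero1l. Named were all 10 members, in each pathway list up to 4 passing genes a direction by P (or the 2 smallest P), the 3 closest profiles, overlapping genes, and Acta1, Ckm and Myh4. Members and lists were chosen with earlier results of these data known. In simulated data for this comparison (15847 genes), 69% of genes changed 2-fold and 90% of those changed 4-fold were called. Of 175 calls, 9.14% were unchanged genes, a share above the threshold of 0.05. The simulation changed 100 genes at each fold, fewer than the 1205 called in the data, so that its shares need not hold there. A planned alignment of the proteins was not run, and some list genes are not reported here.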

Additional observations from a re-analysis of the deposited data

How the results depend on the processing

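The calls of Ahr (14 of 14 alternatives, log2 fold change 2.57 to 3.13) and Ahrr (13 of 13, 7.39 to 8.09) held wherever they were tested. With at least 10 counts required in every library, Ahrr and Npas2 were not tested and 1 member passed in place of 2. Over all genes, 1205 calls became 2470 without a filter on low counts (1181 shared) and 1919 with DESeq2 (1200 shared), and leaving out 1 library gave 530 (without CAAHR replicate 36) to 1727 (without CAAHR replicate 34). Of the called genes, 60.1% were lower in CAAHR. It was 73.4% of them with upper quartile scaling and 40.7% with library size as the only scaling. Those scalings moved the median log2 fold change of all genes by -0.07 and 0.08. Signs turned, never past the threshold, for Arntl with upper quartile scaling (-0.03305) and within the range without 1 library (-0.07369 to 0.2193), for Arnt with library size only (0.05024) and without 1 library (-0.1387 to 0.073, the latter without GFP replicate 42), and for Npas2 with limma-voom (0.02188) and without 1 library (-0.5183 to 0.08707). The cause was not tested.

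With all libraries kept, the calls per list ranged from 3 to 4 for AHR regulators, 3 to 5 for AHR target enzymes, 0 to 2 for other bHLH-PAS genes, 2 to 5 for the clock arm, 0 to 1 for oxygen sensing and 1 to 6 for HIF targets. The partner ratios moved by less than the spread between replicates. Leaving out 1 library still turned the sign of the log2 difference for Arntl to Clock (-0.106, then 0.002755 without GFP replicate 42). It also turned that of Arntl to Npas2 (0.1655, then -0.08135 without CAAHR replicate 34) and Epas1 to Hif1a (0.05034, then -0.1132 without GFP replicate 42). No paired analysis was possible because no replicate number occurs in both groups. Depth limits Npas2, Hif3a and Ahrr in GFP muscles, each at 82 counts a library or fewer, and intervals do not cover differences in delivery between muscles.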
